A study of Homo sapiens with 6 samples.

Results

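The genes described here are the zinc-finger genes of human chromosome 19 whose names are ZNF and a number. The rule that chose them used their names and their chromosome and no measured difference, but it was made with earlier results of these data known. A gene was taken when a feature of the array with an identifier of chromosome 19 carried a gene symbol of that form and no other symbol, and a gene with several such features is given by its brightest one, averaged over the 6 arrays. This gave 242 genes out of 22442 genes with 1 symbol, on arrays of 70523 features. RNA of AC16 cells, a human cell line of adult ventricular cardiomyocyte origin, was measured after 6 h at 28 °C (hypothermia, 3 arrays) or after 6 h at 37 °C (control, 3 arrays). All cells were grown in DMEM/F-12 with fetal bovine serum, penicillin and streptomycin under CO2, and received no other treatment. AC16 cells were made by fusing human ventricular cells with virus-transformed human fibroblasts, so they are a single dividing line and not heart tissue. No source used here states that each sample was a culture of its own, so the p-values rest on a spread between samples that may be only technical. RNA was taken from whole cultures, in which fewer cells with a transcript and less of it per cell cannot be told apart.

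Proteins of this family bind DNA through a row of zinc fingers, small folds in which paired cysteines and histidines hold a zinc ion and whose tips read the bases of the DNA. Many of them also carry a KRAB domain, which recruits the corepressor TRIM28 and through it the histone methyltransferase SETDB1, and many are known to silence transposable elements. On human chromosome 19 these genes lie in long tandem clusters that arose by repeated duplication, so their sequences are alike and a probe for one member can also bind the RNA of another. How much of a signal came from a related gene was not tested.

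The promoters of 3 genes are shown here, the genes with the largest decreases, ZNF284 and ZNF17, and the only gene that rose, ZNF580. They are RefSeq sequences of the assembly GRCh38.p14 on the + strand, from 250 bases before to 50 bases after the start of each gene, at chr19:44071909-44072208, chr19:57410911-57411210 and chr19:55640752-55641051. Capitals mark matches on either strand to the ETS core CCGGAAG, the CCAAT box CCAAT, the SP1 site GGGCGG, and ACTACA, a run of bases that is part of the longer element of the factor ZNF143. Where ACTACA was followed after any 2 bases by TCCC, a longer form that contains the shorter one, the whole stretch is in capitals.
ZNF284: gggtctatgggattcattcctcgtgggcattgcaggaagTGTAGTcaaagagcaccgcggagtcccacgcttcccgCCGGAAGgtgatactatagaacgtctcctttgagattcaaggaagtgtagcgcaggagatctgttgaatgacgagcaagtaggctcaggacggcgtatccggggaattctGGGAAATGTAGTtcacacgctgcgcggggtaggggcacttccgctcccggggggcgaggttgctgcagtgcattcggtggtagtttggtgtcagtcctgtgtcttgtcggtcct
ZNF17: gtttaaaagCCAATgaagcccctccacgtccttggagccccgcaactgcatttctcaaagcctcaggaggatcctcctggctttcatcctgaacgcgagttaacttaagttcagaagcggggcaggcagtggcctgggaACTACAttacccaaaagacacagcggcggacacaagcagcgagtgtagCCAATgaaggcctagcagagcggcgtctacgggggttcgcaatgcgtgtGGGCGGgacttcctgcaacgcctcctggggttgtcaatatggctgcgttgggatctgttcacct
ZNF580: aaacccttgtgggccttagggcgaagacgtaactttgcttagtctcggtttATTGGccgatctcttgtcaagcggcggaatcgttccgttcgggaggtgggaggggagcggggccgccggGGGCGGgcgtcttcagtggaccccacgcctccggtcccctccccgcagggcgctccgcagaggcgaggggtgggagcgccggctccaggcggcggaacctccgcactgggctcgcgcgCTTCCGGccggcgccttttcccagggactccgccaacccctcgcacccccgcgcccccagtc
The promoters of ZNF284 and ZNF17 both held ACTACA, which was looked for after they had been seen, and that of ZNF580 did not. The promoter of ZNF628, which had a higher mean at 28 °C but did not pass the threshold given below, held both forms. ACTACA was in 10 of 48 promoters of genes with a higher mean at 28 °C and in 44 of 156 with a lower mean. ZNF580 had the highest GC content of the 3, 70.7%, against 56.3% in each of the others.

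Most chromosome 19 ZNF genes had a lower mean signal at 28 °C than at 37 °C. The mean was lower for 188 of the 242 genes (77.7%) and higher for 54, while it was lower for 40.4% of all features and 40.3% of the genes with 1 symbol. The median log2 difference, 28 °C minus 37 °C, was -0.07, and it was 0.03 over all features. With limma and Benjamini-Hochberg adjustment over all 70523 features at an adjusted p under 0.05, 11 genes fell (4.55%) and 1 rose (0.413%), beside 0.591% of all features called lower and 0.227% called higher. Of the genes with 1 symbol, 0.766% were called lower and 0.428% higher. At an unadjusted p under 0.05, 64 of the 242 genes were lower and 7 were higher, where 6.08% of all features were lower and 5.41% were higher (9.28% and 5.41% of the genes with 1 symbol). In 85 genes (35.1%) every 28 °C array lay below every 37 °C array, and in 10 (4.13%) every 28 °C array lay above. Over all features these shares were 8.49% and 9.38%, and over the genes with 1 symbol they were 13.8% and 11.5%. In the ZNF genes on other chromosomes, described below, they were 31.5% and 9.62%. The count of 11 rested on which arrays were used. Leaving out control replicates 1, 2 and 3 in turn gave 2, 4 and 18 genes, and leaving out hypothermia replicates 1, 2 and 3 gave 4, 3 and 4. The lower calls over all features moved with it, from 417 to 133, 208 and 799 without control replicates 1, 2 and 3 and to 117, 112 and 166 without hypothermia replicates 1, 2 and 3.

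**Figure D1:**
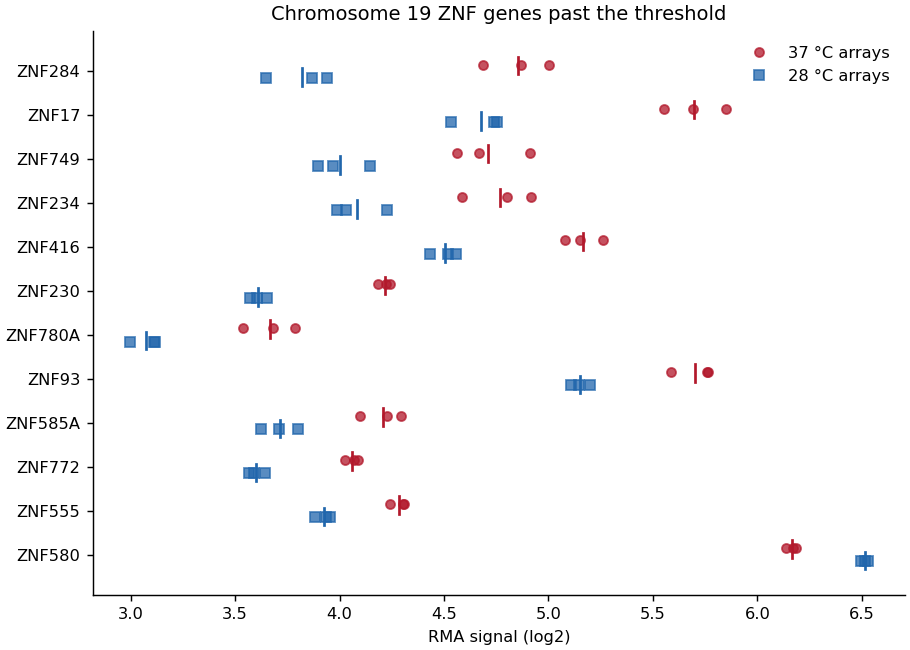
Log2 signal of the 12 chromosome 19 ZNF genes past the threshold (rows) on each array, with circles for the 37 °C arrays, squares for the 28 °C arrays and vertical bars for the group means (n = 3 each). The groups overlap in none of the 12 genes, and ZNF580 is the only gene with its 28 °C arrays on the right.

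ZNF284 had the largest decrease. Its log2 signal was 4.87, 5.00 and 4.69 in control replicates 1, 2 and 3 and 3.65, 3.94 and 3.87 in hypothermia replicates 1, 2 and 3. All 28 °C arrays were below all 37 °C arrays, and the log2 difference was -1.03 (standard error 0.107, adjusted p = 0.00743 from limma), which left 48.8% of the control signal. ZNF17 had 5.69, 5.85 and 5.55 at 37 °C and 4.75, 4.53 and 4.74 at 28 °C. Its log2 difference was -1.02 (standard error 0.0977, adjusted p = 0.00578 from limma). The next largest decreases were those of ZNF749 and ZNF234, at -0.71 and -0.69 on the log2 scale. ZNF749 had 4.91, 4.67 and 4.56 at 37 °C and 4.15, 3.97 and 3.89 at 28 °C, and ZNF234 had 4.80, 4.92 and 4.59 at 37 °C and 4.23, 3.99 and 4.03 at 28 °C. In both genes control replicate 3 was the lowest of the controls and still lay above each 28 °C array.

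ZNF416 and ZNF230 had smaller changes with tighter replicates. ZNF416 had 5.15, 5.26 and 5.08 at 37 °C and 4.56, 4.52 and 4.43 at 28 °C. It fell from 5.16 ± 0.0921 (SD, n = 3) to 4.50 ± 0.0634 (SD, n = 3), a log2 difference of -0.66 (adjusted p = 0.0100 from limma). The signal of ZNF230 was 4.24, 4.22 and 4.18 at 37 °C and 3.57, 3.61 and 3.65 at 28 °C, with a log2 difference of -0.61 (standard error 0.0607, adjusted p = 0.00672 from limma). ZNF230 and ZNF17 were the only 2 of the 11 that passed in each of the 6 fits that left out 1 array. ZNF284 missed the threshold without control replicate 1 (adjusted p = 0.0510 from limma), and ZNF416 missed it when either control replicate 1 or hypothermia replicate 2 was dropped (highest adjusted p 0.0560).

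ZNF93, whose protein is known to bind and repress LINE-1 elements in primates, also fell. Its signal was 5.76, 5.76 and 5.59 at 37 °C and 5.15, 5.20 and 5.11 at 28 °C, a log2 difference of -0.55 (standard error 0.0729, adjusted p = 0.0182 from limma). ZNF91, known to repress SVA elements, had a log2 difference of -0.05 (adjusted p = 0.798), and its values at 28 °C, 4.97, 4.83 and 4.93, overlapped those at 37 °C, 5.00, 5.01 and 4.89. The remaining genes that fell were ZNF780A (-0.59), ZNF585A (-0.49), ZNF772 (-0.46) and ZNF555 (-0.36), as log2 differences, with adjusted p from 0.0184 to 0.0492 from limma. ZNF772 had 4.07, 4.09 and 4.03 at 37 °C and 3.59, 3.57 and 3.64 at 28 °C, and ZNF555 had 4.31, 4.31 and 4.24 at 37 °C and 3.94, 3.96 and 3.88 at 28 °C. In these 2 genes the arrays of a group lay close together, and their differences were the smallest decreases that passed. ZNF749, ZNF234, ZNF780A, ZNF93, ZNF585A, ZNF772 and ZNF555 passed without control replicate 3 and in none of the other fits that left out 1 array, with an adjusted p of up to 0.195.

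ZNF780A and ZNF585A each have a neighbour of the same number with the letter B, and neither neighbour passed. The signal of ZNF780A was 3.68, 3.78 and 3.54 at 37 °C and 3.11, 3.00 and 3.12 at 28 °C, and that of ZNF585A was 4.23, 4.29 and 4.10 at 37 °C and 3.63, 3.80 and 3.71 at 28 °C. ZNF780B had a log2 difference of -0.34 (adjusted p = 0.183) and ZNF585B had -0.24 (adjusted p = 0.144). In ZNF585B the 28 °C values of 3.33, 3.31 and 3.29 were all below the 37 °C values of 3.53, 3.55 and 3.58. The difference between the letters of a pair was not tested.

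ZNF580 was the only gene that rose. Its signal was 6.17, 6.14 and 6.19 at 37 °C and 6.52, 6.53 and 6.50 at 28 °C, a log2 difference of 0.35 (standard error 0.0586, adjusted p = 0.0467 from limma), or 1.27-fold. It missed the threshold in each fit that left out 1 array (adjusted p from 0.0517 to 0.224), with a log2 difference of 0.33 to 0.36 in them. ZNF628 had a larger difference, 0.38, with more spread (adjusted p = 0.0911). Its values at 28 °C were 5.82, 5.82 and 5.95 and those at 37 °C were 5.56, 5.38 and 5.53, without overlap. ZNF628 and the other genes given here that did not pass the threshold were named after their values were seen, apart from ZNF649, ZNF419, ZNF548 and the genes with the lowest p-values of a list.

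The threshold divided genes with nearly the same p. Just inside it were ZNF555, ZNF580 and ZNF585A, with an adjusted p of 0.0492, 0.0467 and 0.0397, and just outside it were ZNF649, ZNF419 and ZNF548, with 0.0510, 0.0526 and 0.0545. ZNF649 had values of 5.55, 5.42 and 5.21 at 37 °C and 4.82, 4.84 and 4.91 at 28 °C, a log2 difference of -0.54. ZNF419 and ZNF548 had -0.37 and -0.35. Large differences with wide replicates also fell short. ZNF552, ZNF562 and ZNF417 had log2 differences of -0.54, -0.52 and -0.50, larger than that of ZNF585A, with an adjusted p of 0.137, 0.0790 and 0.110. ZNF417, a KRAB protein known to repress endogenous retroviruses in human cells, had 5.21, 5.01 and 4.80 at 37 °C and 4.43, 4.47 and 4.61 at 28 °C, without overlap. Among genes with a known role that did not pass, ZNF224, a KRAB protein that represses the aldolase A gene, had -0.37 (adjusted p = 0.108). ZNF473, which takes part in the 3′ end processing of histone transcripts, had -0.24 (adjusted p = 0.393). ZNF274, whose protein binds the 3′ ends of zinc-finger genes and recruits SETDB1 there, had a log2 difference of 0.18 (adjusted p = 0.354), and its 28 °C values of 5.92, 5.85 and 5.84 lay above the 37 °C values of 5.74, 5.62 and 5.71.

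The decreases were spread over the chromosome. The genes were put in the order of the RefSeq table, and a cluster was ended where more than 3 other protein-coding genes lay between neighbours, which gave 28 clusters. Of these, 11 held 5 or more genes, 218 in all. In them 179 genes (82.1%) had a lower mean at 28 °C, 10 fell and 1 rose, with a median log2 difference of -0.08, and 9 of the 11 clusters had a median below 0. The other 17 clusters held 24 genes in runs of 1 to 4, of which 9 (37.5%) had a lower mean, with a median of 0.07. This difference between large and small clusters was not tested. The cluster from ZNF264 to ZNF446 was the largest and had the most genes that fell, ZNF17, ZNF749, ZNF416 and ZNF772 among its 40, and 35 of the 40 had a lower mean. In the neighbouring genes ZNF548, ZNF17, ZNF749, ZNF772 and ZNF419 the log2 differences were -0.35, -1.02, -0.71, -0.46 and -0.37, in the order of the chromosome.

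**Figure D2:**
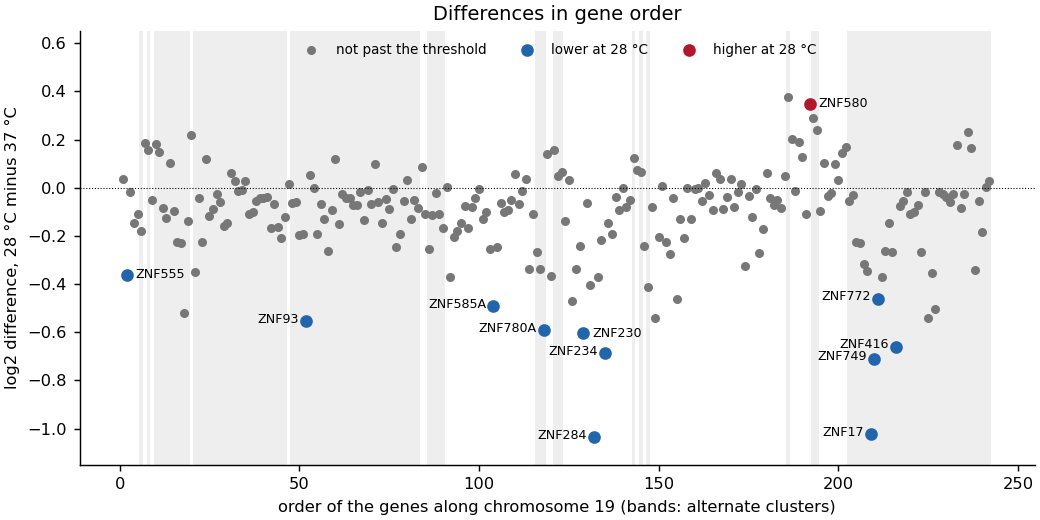
Log2 difference, 28 °C minus 37 °C, of the 242 chromosome 19 ZNF genes in the order of the chromosome, with alternate clusters shaded and the genes past the threshold named. Most points lie below 0, the 2 lowest are ZNF284 and ZNF17, and ZNF580 is the only named gene above 0.

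In the cluster from ZNF283 to ZNF180, ZNF230, ZNF284 and ZNF234 fell. Of its 19 genes 17 had a lower mean at 28 °C, 11 had no overlap between the groups with 28 °C lower, and the median log2 difference was -0.19. Such a lack of overlap was found in 35.1% of all chromosome 19 ZNF genes. It was found in 8.49% of all features and in 13.8% of the genes with 1 symbol. The change was uneven among neighbours: ZNF223 had -0.41, ZNF284 had -1.03 and ZNF224 had -0.37, while ZNF222 had -0.06 and ZNF285 had 0.00. The 3 genes from ZNF546 to ZNF780A had -0.27, -0.34 and -0.59. In the clusters of 36 genes (ZNF101 to ZNF254) and 38 genes (ZNF577 to ZNF331), 32 and 30 genes had a lower mean, with medians of -0.07 and -0.05, and ZNF93 was the only gene of either that passed. Both clusters of 5 or more genes with a median above 0 lie in the distal part of the long arm. The cluster from ZNF579 to ZNF580 had a median of 0.16 over 6 genes and that from ZNF542P to ZNF835 had 0.07 over 8. ZNF628, ZNF787 and ZNF444 lie in the same stretch, and had 0.38, 0.29 and 0.24.

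ZNF genes on other chromosomes and the other genes of chromosome 19 were set beside these. Of 260 ZNF genes on other chromosomes, 151 (58.1%) had a lower mean at 28 °C, and their median log2 difference was -0.03. In limma 9 of them fell (3.46%) and none rose, beside 0.591% of all features called lower and 0.227% called higher. At an unadjusted p under 0.05, 58 were lower and 13 higher, beside 6.08% and 5.41% of all features. In 82 of the 260 (31.5%) every 28 °C array lay below every 37 °C array, close to the 35.1% of the chromosome 19 ZNF genes. In 25 (9.62%) every 28 °C array lay above. Of 1237 other genes on chromosome 19, 228 (18.4%) had a lower mean, 2 fell and 10 rose, and the median was 0.08. On each 37 °C array the mean of the chromosome 19 ZNF genes was above its average over the 6 arrays, by 0.0604, 0.0695 and 0.0324 on the log2 scale in replicates 1, 2 and 3. On the 28 °C arrays it was below it, at -0.0535, -0.0546 and -0.0542. The other genes of chromosome 19 gave -0.0417, -0.114 and 0.0367 at 37 °C and 0.0184, 0.0228 and 0.0781 at 28 °C, so that control replicate 3 lay among the 28 °C arrays for them and not for the ZNF genes. No test of one group of genes against another was made.

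**Figure D3:**
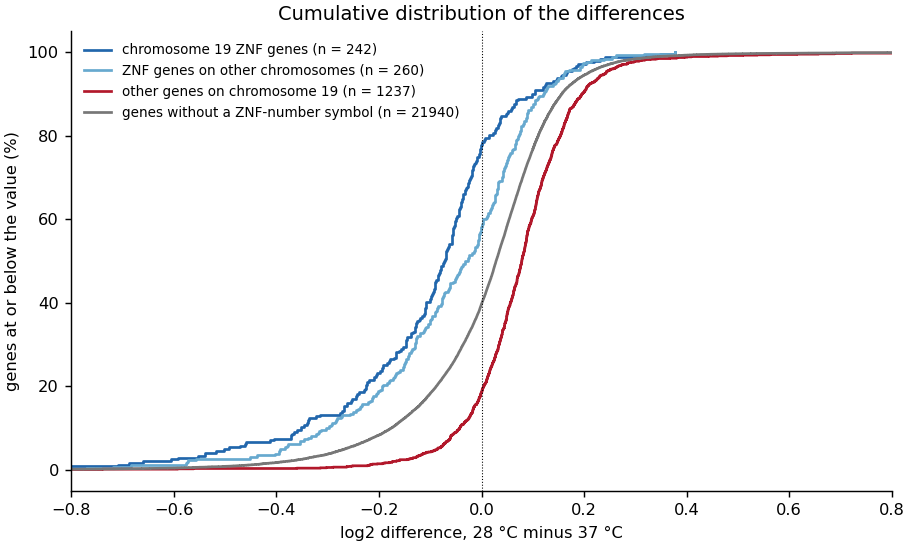
Cumulative share of genes (%) against the log2 difference, 28 °C minus 37 °C, for 4 groups of genes, with the dotted line at 0. The curve of the chromosome 19 ZNF genes crosses the line at 77.7% and that of the other genes on chromosome 19 at 18.4%, and a few genes lie beyond the limits of the axis.

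**Figure D4:**
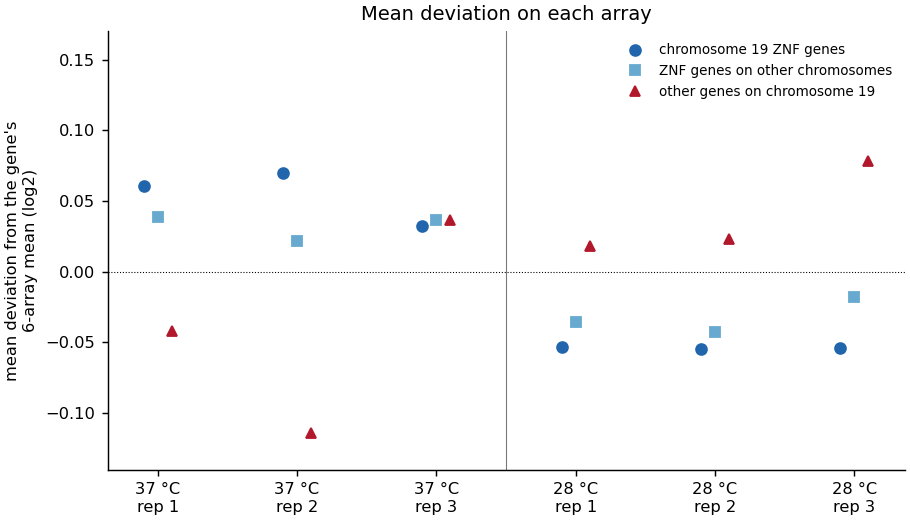
Mean deviation of 3 groups of genes from each gene's mean over the 6 arrays (log2), on every array, with 37 °C arrays left of the line and 28 °C arrays right of it. The chromosome 19 ZNF genes are between 0.0324 and 0.0695 on the left and between -0.0546 and -0.0535 on the right.

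The background of the arrays varied as well, with overlap between the 28 °C and 37 °C arrays. The 23 background control features of the array carry a number from 3 to 25 that grows with the GC content of their probes. The 11 brighter ones, those with the higher numbers, all had a higher mean at 28 °C, with a median log2 difference of 0.18, and the 12 dimmer ones had a median of 0.01. On the 37 °C arrays the mean log2 signal of the brighter ones was 6.20, 6.10 and 6.47 in replicates 1, 2 and 3, and on the 28 °C arrays it was 6.40, 6.39 and 6.49, so that control replicate 3 lay among the 28 °C arrays. None of the 23 passed in limma, and none had an unadjusted p under 0.05. When the mean of the brighter ones on each array was added to the fit as a covariate, chosen after seeing the data, 72.3% of the chromosome 19 ZNF genes had a lower value at 28 °C, with a median of -0.07. In that fit the share for ZNF genes on other chromosomes went from 58.1% to 71.2%, with a median of -0.05, close to that of the chromosome 19 ZNF genes. The other genes on chromosome 19 went from 18.4% to 47.3%, with a median of 0.00, and all features from 40.4% to 48.6%. ZNF17 and ZNF230 fell in it and no other chromosome 19 ZNF gene passed, beside 105 of all features called lower. Among 204 genes with a promoter sequence, the log2 difference and the GC content of the promoter had a Pearson correlation of 0.27 across genes, which are not independent and which share the 6 arrays. The third of these genes with the lowest promoter GC content had a median of -0.09 and held 8 of the genes that fell, and the third with the highest had -0.04 and held 1 of them and ZNF580. The GC content of the probes was not known, and its part in these differences was not tested.

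**Figure D5:**
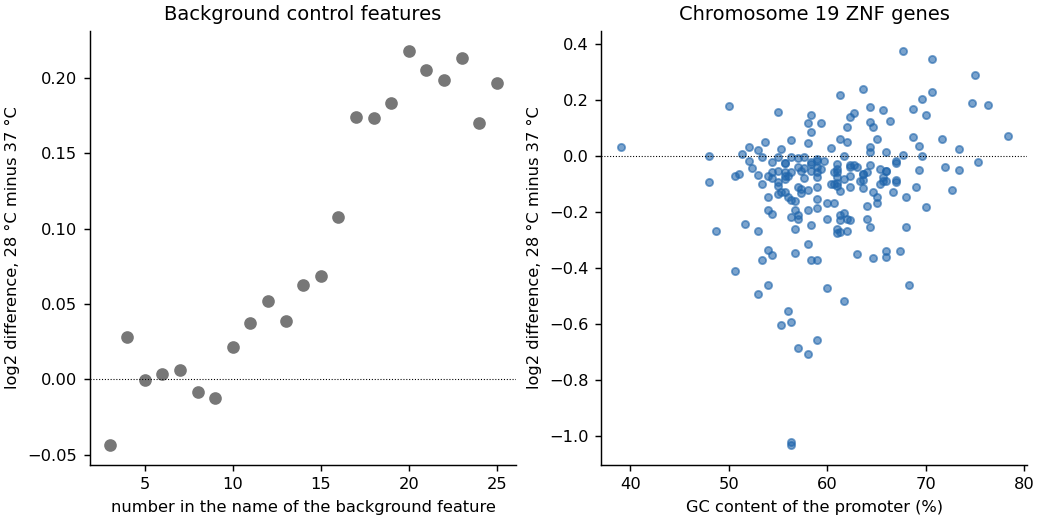
Log2 difference, 28 °C minus 37 °C, of the 23 background control features against the number in their names (left), and of 204 chromosome 19 ZNF genes against the GC content of the promoter in % (right). The background features with the higher numbers lie up to 0.22 above 0, and the genes spread widely around a weak upward slope.

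Genes with a lower mean at 28 °C were found at all signal levels. Pearson's correlation of the mean signal with the log2 difference over the 242 genes was 0.02. Of the 121 genes between the 50th and the 75th percentile of all features by mean signal, 106 (87.6%) had a lower mean at 28 °C and 9 fell. Of all features in that band 31.8% had a lower mean and 0.613% were called lower. Of the 59 genes above the 75th percentile, 36 (61%) had a lower mean and 1 fell, where 52.6% of all features had a lower mean and 1.68% were called lower, so the share among the brightest genes was nearer to that of all features. The mean signal of 6 genes was below that of the median background feature, and a change in them may not be visible. ZNF77 and ZNF529 were the 2 genes with a further feature. Both features of ZNF77 had a lower mean at 28 °C (-0.11 and -0.12), and those of ZNF529 had opposite signs (-0.18 and 0.09), none of them past the threshold.

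The promoters of these genes shared sequence features with one another. The ETS core CCGGAAG, on either strand, was in 91 of 204 promoters (44.6%), in 34.1% of those of ZNF genes on other chromosomes, in 13.0% of those of other protein-coding genes on chromosome 19 and in 10.7% of all 27305 promoters of the table. ACTACA was in 26.5% of the promoters of chromosome 19 ZNF genes, in 13.6% of those of ZNF genes on other chromosomes and in 8.95% of all promoters, and the longer form that ends in TCCC was in 14.7% and 1.96%. Of the 11 genes that fell, 7 had ACTACA. This motif was looked for after the promoters of ZNF284 and ZNF17 had been seen, and 5 of the other 9 genes that fell had it. The 7 were all those that fell in the clusters from ZNF264 to ZNF446 and from ZNF283 to ZNF180. Genes of these clusters that did not pass also held it, such as ZNF225, ZNF235 and ZNF551, and others such as ZNF222 and ZNF304 did not. Among all genes with a lower mean at 28 °C 28.2% of the promoters had ACTACA, and among those with a higher mean 20.8%. For the longer form these shares were 14.1% and 16.7%. The CCAAT box was in 9 of the 11, in 52.5% of the 204 and in 35.7% of all promoters. The ETS core was in 5 of the 11, and the SP1 site was also in 5 of them, against 68.6% of the 204 and 44.6% of all promoters. TATAAA was in 1.96% of the promoters of chromosome 19 ZNF genes and in 12.0% of all promoters. The sites of NRF1 (GCGCAT joined to GCGC), YY1 (AAGATGGCG) and cyclic AMP response (TGACGTCA) were in 1.96%, 3.92% and 2.94% of the 204. A match describes the letters of the promoter and does not show that a factor binds there.

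SETDB1, the methyltransferase that KRAB zinc-finger proteins call to their targets, was the only gene that passed among those measured for this repression. Of a list of 31 genes of TRIM28-dependent repression, 29 were measured. None rose and SETDB1 fell in limma (3.45% called lower), beside 0.591% of all features called lower. At an unadjusted p under 0.05, 1 was higher and 5 were lower. At that level 5.41% of all features were higher and 6.08% lower (5.41% and 9.28% of the genes with 1 symbol). The median log2 difference of the list was -0.08. SETDB1 had 5.63, 5.57 and 5.45 at 37 °C and 5.07, 5.06 and 5.13 at 28 °C, a log2 difference of -0.46 (standard error 0.0710, adjusted p = 0.0328 from limma). Its groups did not overlap, and among the fits that left out 1 array it passed only without control replicate 3 (adjusted p up to 0.158). It did not pass with the background covariate (adjusted p = 0.142), with the replicate block (0.0847) or with a plain test per feature (0.191). That plain test called 0 of all features lower. SETDB1 passed with the random variance model, which the paper names for the arrays (adjusted p = 0.0312). It also passed after quantile normalization (0.0357), after centring each array on its median (0.0426) and with array weights (0.00861). TRIM28 itself had 0.10 (adjusted p = 0.633). Of 22 listed finger genes of chromosome 19 with names such as ZFP, ZSCAN and KLF, 18 had a feature with that symbol alone. None of the 18 passed in limma. At an unadjusted p under 0.05, 3 were higher and 2 lower, beside 5.41% and 6.08% of all features. The lowest p-values were those of KLF2 and ZFP30. KLF2, a factor that answers to fluid shear in endothelium, had a log2 difference of 0.66 (adjusted p = 0.124), and the KRAB gene ZFP30 had -0.22 (adjusted p = 0.245).

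Markers of cell types did not pass. Of 12 cardiomyocyte markers 11 were measured, and 10 of them had a higher mean at 28 °C, with a median log2 difference of 0.09. RYR2, the calcium release channel of heart muscle, had a signal of 2.28 at 37 °C, which is under the arrays' median background features (2.47 to 2.60), while GATA4 had 6.73 and NPPB 9.15. Of the fibroblast, leukocyte and endothelial markers 8, 7 and 4 were measured, with medians of 0.04, 0.07 and 0.02. All 7 leukocyte markers had a higher mean at 28 °C, and 3 of them, MS4A1, LYZ and PTPRC, had signals of 2.17 to 2.24 at 37 °C, also under the background. Over all these lists the unadjusted p was under 0.05 for NPPA alone, with a log2 difference of 0.23 (adjusted p = 0.252). The 2 lowest p-values of each list were those of NPPA and GATA4, COL1A1 and PDGFRB, CD68 and MS4A1, and VWF and CDH5. Their part in the differences of the ZNF genes was not tested.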

How the data were processed

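Biotin-labelled RNA from 3 samples at each temperature was hybridised to 6 Affymetrix arrays. The authors deposited log2 signals from RMA, a method of background correction, normalization and probe summary, and no version or setting of it is stated in the sources used here. These values were not changed. A limma 3.58.1 model (lmFit and eBayes, R 4.3.3) of the group was fitted to all 70523 features, with Benjamini-Hochberg adjustment across them. The paper names a random variance model, which was an alternative with 8.08 degrees of freedom. The fits were tested on simulated data. The number of arrays limits the precision.

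Gene symbols came from the platform annotation, and 1 of the 242 was renamed through RefSeq (ZNF66, formerly ZNF66P). By RefSeq, 233 are protein coding and the others pseudogenes. No gene shared all its values with another feature. Promoters of 204 genes were matched by gene ID, and protein features were not analysed here. The members and lists were chosen with earlier results of these data known. A gene of a list was taken as measured when a feature carried that symbol and no other. Named genes were those that passed, the 3 on each side of the threshold, and from each list up to 4 that passed or the 2 with the lowest p. Replicate numbers were not taken as pairs in the main setting.

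Alternatives were quantile normalization, centring on medians, filters on dim features at the 25th and 50th percentile, an intensity trend, the random variance model, a plain test per feature, array weights, a replicate block, leaving out each array, the mean of all rows of a gene, other thresholds, and the background covariate.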

Additional observations from a re-analysis of the deposited data

How the results depend on the processing

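The median log2 difference of the chromosome 19 ZNF genes was below 0 under each alternative. It was -0.105 after quantile normalization, -0.109 after centring each array on its median and -0.0900 above the 50th percentile of mean signal, and ranged from -0.0876 to -0.0684 when 1 array was left out. The share of these genes with a lower mean ranged from 72.3% to 83.9%. Centring moved the median of all features to -0.01 and their share with a lower mean from 40.4% to 53.8%. The count of 11 genes that fell became 17 above the 50th percentile, where 180 of the genes were fitted, 29 with array weights, 2 with the background covariate that was added after seeing the data, 20 at an adjusted p under 0.1 and 64 at an unadjusted p under 0.05. It ranged from 2 to 18 when 1 array was left out, and all 11 were among the 18 without control replicate 3. Over all features the lower calls were 417 of 70523, and 628 of 35261 above the 50th percentile. They were 1107 with array weights, 105 with the background covariate and 304 with the replicate block. At an unadjusted p under 0.05 they were 4286. The count over all features at an adjusted p under 0.1 is not given here. The plain t-test per feature called 0 lower and 0 higher after adjustment, and 67 lower and 6 higher at an unadjusted p under 0.05. It called 0 of all features lower after adjustment. The random variance model, which the paper names for the arrays, called 12 lower and 1 higher, beside 447 of all features called lower. The 1 gene that rose, ZNF580, was lost (0 higher) after centring, with the replicate block, with the covariate, with a 1.3-fold minimum and in each fit without 1 array. At an unadjusted p under 0.05, 4, 8, 5 and 7 genes were higher after centring, with the block, with the covariate and in the main setting. The counts of higher genes in the main setting were 2 at an adjusted p under 0.1 and 7 at an unadjusted p under 0.05. Of all features 5.41% were higher at an unadjusted p under 0.05 in the main setting. The shares of all features higher at that level under the alternatives are not given here. With the replicate block 8 genes fell, 7 of them among the 11. The deviations of same-numbered arrays correlated at -0.0817, 0.114 and 0.215, and those of differently numbered arrays at -0.25 to 0.131. These values do not settle whether the numbers pair the samples, and the main setting did not take them as pairs. The cause of these changes was not tested.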
